A study of Mus musculus with 12 samples.

Results

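The Hippo pathway was examined at the level of trimethylated lysine 4 of histone H3 (H3K4me3), a histone mark of active promoters, in nuclei of adult mouse cardiomyocytes (CMs). The genes followed were Stk3, Stk4, Sav1, Lats1, Lats2, Yap1, Wwtr1, Tead1, Tead4 and Vgll4, and the peaks were every H3K4me3 peak that carried 1 of these 10 gene names in the deposited table. The rule found 9 of the 15848 peaks in the table, 1 for each gene except Lats2, which had no peak under its own name. A further 8 peaks lay over the bodies of the same genes or within 5000 bases of them without carrying the name, and these are described separately. CtrlCre mice were αMHC-Cre pos/+ with both Cpt1b alleles intact, and Cpt1bcKO mice were αMHC-Cre pos/+;Cpt1b fl/fl, so that Cre was present in both genotypes. Cpt1b encodes carnitine palmitoyltransferase 1b, which heart muscle needs to import fatty acids into its mitochondria. Cre was driven by the αMHC promoter, which is active in CMs, and removes the floxed part of Cpt1b from embryonic stages on. The animals were adult littermates on a C57BL/6 background, with no exact age in the labels, and nuclei had been sorted for the CM nuclear marker PCM1. There were 3 H3K4me3 libraries per genotype, and 6 matching input libraries entered only the peak calling. The study's methods give at least 3 biological replicates for quantitative analyses, but the labels do not say that these libraries came from separate mice. The p-values measure the spread between these libraries, which may be partly technical.

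Hippo signalling is a kinase cascade that restrains organ growth. The kinases STK3 and STK4 (also MST2 and MST1), with the scaffold SAV1, activate the kinases LATS1 and LATS2, which phosphorylate the co-activators YAP1 and WWTR1 (also TAZ) and keep them out of the nucleus. Unphosphorylated YAP1 and WWTR1 bind TEAD transcription factors at target genes, VGLL4 competes with them for TEAD, and in the heart the pathway is known for holding back CM division. The comparison asked whether the H3K4me3 of these genes differed between CMs with and without Cpt1b.

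TEAD factors recognize the motif GGAATG, and the promoters of the pathway's own genes were searched for these letters on both strands. The promoter windows were RefSeq sequences of the mouse build GRCm38.p6, running from 250 bases before to 50 bases after an annotated start. The table held 9 windows for 7 of the 10 genes, with no window for Stk3, Tead1 or Tead4. The motif occurred in 6 of the 9 windows, in at least 1 window of Sav1, Lats2, Yap1, Wwtr1 and Vgll4, and in none of Lats1 or Stk4. The 2 matching Wwtr1 windows overlap and share 1 match. Among all 32851 windows of the same length, 14.7% held the motif. The central 300 bases of the 9 named peaks held it in 0 of 9, against 11.4% of the centres of all tested peaks. Over their whole length, the named peaks of Wwtr1, Yap1, Tead1, Tead4 and Sav1 held 0.5 to 1.48 matches per kb. Those of Lats1, Stk3, Stk4 and Vgll4 held 0, and the median over all tested peaks was 0.31 per kb. For Sav1, Lats2, Yap1, Wwtr1 and Vgll4, 1 promoter window with a match is printed. The windows show where the letters of the pathway's output factor stand in the promoters of its own genes. They run 5′ to 3′ on the strand of the gene, with the match in capitals.
Sav1 promoter: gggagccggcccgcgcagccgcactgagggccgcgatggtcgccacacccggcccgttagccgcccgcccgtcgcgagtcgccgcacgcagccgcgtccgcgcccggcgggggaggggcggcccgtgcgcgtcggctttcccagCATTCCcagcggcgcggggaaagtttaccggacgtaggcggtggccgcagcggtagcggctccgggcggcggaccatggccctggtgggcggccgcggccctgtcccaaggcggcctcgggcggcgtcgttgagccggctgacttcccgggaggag
Lats2 promoter: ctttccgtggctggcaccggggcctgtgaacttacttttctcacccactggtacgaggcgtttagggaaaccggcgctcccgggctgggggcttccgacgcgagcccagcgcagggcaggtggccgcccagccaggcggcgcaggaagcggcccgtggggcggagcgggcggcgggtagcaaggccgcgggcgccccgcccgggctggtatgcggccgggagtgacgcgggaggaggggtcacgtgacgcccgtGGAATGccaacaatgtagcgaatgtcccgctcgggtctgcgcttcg
Yap1 promoter: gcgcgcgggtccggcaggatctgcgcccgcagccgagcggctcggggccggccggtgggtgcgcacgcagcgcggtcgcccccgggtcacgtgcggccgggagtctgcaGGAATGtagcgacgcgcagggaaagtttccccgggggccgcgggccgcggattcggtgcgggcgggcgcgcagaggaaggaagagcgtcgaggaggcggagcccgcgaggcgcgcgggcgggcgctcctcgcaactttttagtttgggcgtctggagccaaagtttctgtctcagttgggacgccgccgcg
Wwtr1 promoter: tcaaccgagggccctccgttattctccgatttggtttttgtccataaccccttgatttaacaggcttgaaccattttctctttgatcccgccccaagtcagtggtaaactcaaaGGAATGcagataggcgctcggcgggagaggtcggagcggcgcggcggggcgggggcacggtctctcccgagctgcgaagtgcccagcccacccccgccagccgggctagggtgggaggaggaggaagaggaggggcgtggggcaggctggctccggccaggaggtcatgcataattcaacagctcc
Vgll4 promoter: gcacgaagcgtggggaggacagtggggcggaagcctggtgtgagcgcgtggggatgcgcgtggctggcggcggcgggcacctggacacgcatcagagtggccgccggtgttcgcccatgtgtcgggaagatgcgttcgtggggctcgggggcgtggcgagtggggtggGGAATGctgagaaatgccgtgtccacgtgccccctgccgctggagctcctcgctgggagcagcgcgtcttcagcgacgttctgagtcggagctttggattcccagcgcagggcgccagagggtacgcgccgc
The Sav1 window is chr12:69986953-69987252 on the minus strand, and the Lats2 window is chr14:57746074-57746373 on the minus strand. The Yap1 window is chr9:8004547-8004846 on the minus strand. The Wwtr1 window is chr3:57575861-57576160 on the minus strand, and a second Wwtr1 window overlapping it holds the same match. The Vgll4 window is chr6:114969154-114969453 on the minus strand. In Sav1 the match reads CATTCC, the motif on the other strand, and in the other 4 genes it reads GGAATG. All 5 printed windows lay inside an H3K4me3 peak. The Vgll4 window lay under a peak that carried no gene name, and the Lats2 window under a peak assigned to an unnamed gene. A match describes the letters and is not evidence of a bound factor.

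The depth of the libraries set how finely these peaks could be compared. Counts in peaks, recovered from the deposited values, totalled 763133 to 2115652 in the CtrlCre libraries and 1581708 to 2766416 in the Cpt1bcKO libraries, with CtrlCre replicate 2 the shallowest. The 9 named peaks held 38 to 446 reads per library. All 10 CM markers had a named peak, and their summed value was 8607 to 10320 in CtrlCre and 6604 to 9418 in Cpt1bcKO. Of their 11 peaks, 1, at Actc1, was called lower, where 1.28% of all named genes tested had a peak called lower. Of 36 markers of fibroblasts, endothelial cells, mural cells, macrophages, epicardium and Schwann cells, 5 had a named peak, namely Pdgfra, Kdr, Acta2, Cspg4 and Myh11. The Cpt1b peak itself stood at 428, 407 and 436 in CtrlCre and 572, 689 and 568 in Cpt1bcKO, so it was higher in the mutants (log2 difference 0.52, adjusted p = 0.00357 by limma). A promoter mark does not measure loss of the floxed exons.

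None of the 9 named Hippo peaks was called different between genotypes. Their values were normalized read counts per peak, as deposited, and were compared as log2(value + 1) with limma across all 15039 peaks with a mean of at least 10. All 9 named peaks passed that filter. At an adjusted p under 0.05, 0 of the 9 were called, against 2.93% of all tested peaks. At an unadjusted p under 0.05, 0 of the 9 passed against 12.8% of all peaks, and limma-voom on the recovered counts likewise gave 0 at either threshold. The 9 log2 differences, Cpt1bcKO minus CtrlCre, ran from -0.05 to 0.21 with a median of 0.01, and their median size was 0.04, beside a median size of 0.14 over all tested peaks. Of the 9 peaks, 8 had more reads than the median tested peak. The 95% intervals together ran from -0.28 to 0.50, that is from 0.824-fold to 1.41-fold, and larger changes at these peaks lay outside every interval. These limits hold for change relative to the median peak. The normalization removes a shift shared by all peaks, so the intervals do not bound a global change in H3K4me3.

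**Figure D1:**
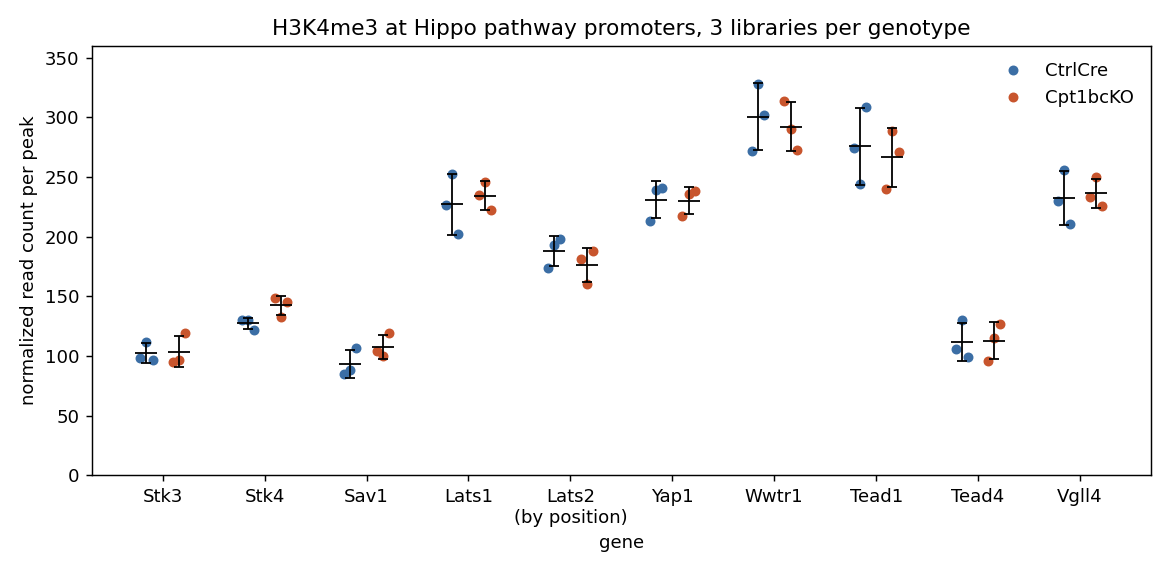
Normalized H3K4me3 read count (vertical axis) at the peak named for each gene, with Lats2 represented by the peak over its inner transcript starts. Points are single libraries, 3 per genotype (CtrlCre blue, Cpt1bcKO orange), horizontal marks the mean and bars the SD. The genotypes overlap for every gene except Stk4, where 133 to 149 in Cpt1bcKO lie above 122 to 130 in CtrlCre.

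Of the kinase cassette, Stk4 and Sav1 had the largest differences, both towards Cpt1bcKO. Stk4, an initiating kinase, was at 130, 130 and 122 in CtrlCre and at 149, 133 and 145 in Cpt1bcKO. It was the 1 named peak of the 9 whose genotypes did not overlap, which held for 16.3% of all tested peaks. Its log2 difference was 0.16 (SE 0.11, adjusted p = 0.631). Sav1, the scaffold of the initiating kinases, was at 85, 88 and 107 in CtrlCre and at 104, 100 and 119 in Cpt1bcKO. The genotypes overlapped at Sav1, through CtrlCre replicate 3, and the log2 difference of 0.21 (SE 0.14) had the smallest p of the 9 (adjusted p = 0.599, limma). Its 95% interval of -0.08 to 0.50 includes no change and a 1.41-fold rise.

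Stk3, the paralogue of Stk4, was at 98, 112 and 97 in CtrlCre and at 95, 97 and 119 in Cpt1bcKO. The ranges were nearly the same and the log2 difference was 0.01 (95% interval -0.27 to 0.30). Lats1, which phosphorylates YAP1 and WWTR1, was at 227, 253 and 202 in CtrlCre and at 235, 246 and 222 in Cpt1bcKO. All Cpt1bcKO values of Lats1 lay within the CtrlCre range, with a log2 difference of 0.05 (interval -0.17 to 0.26). The Lats1 peak also overlaps the neighbouring gene Pcmt1, the Tead1 peak 2310014F06Rik and the Yap1 peak Gm45494, and reads of these pairs cannot be told apart. For Lats2, the second kinase of this step, a peak over 5 of its 9 annotated transcript starts, chr14:57744076-57746863, was used. Its centre lies 12.9 kb inside the outermost start, and the table assigns it to an unnamed gene that overlaps it, and reads of that pair cannot be told apart either. That peak was at 174, 193 and 198 in CtrlCre and at 181, 160 and 188 in Cpt1bcKO. The lowest value was in Cpt1bcKO and the ranges overlapped (log2 difference -0.10, interval -0.32 to 0.12).

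The co-activators overlapped between genotypes as well. Yap1 was at 213, 239 and 241 in CtrlCre and at 217, 236 and 238 in Cpt1bcKO. The means were 231 ± 15.6 and 230.3 ± 11.6 (SD, n = 3 each), a log2 difference of -0.003 with an interval of -0.21 to 0.20. Wwtr1 was at 272, 328 and 302 in CtrlCre and at 314, 290 and 273 in Cpt1bcKO. Wwtr1 had the highest named value of the 10 genes, and its highest and its lowest library were both CtrlCre (log2 difference -0.04, interval -0.25 to 0.17).

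At the TEAD factors, which carry the DNA-binding part of the complex, the named peaks overlapped too. Tead1 was at 274, 244 and 309 in CtrlCre and at 240, 289 and 271 in Cpt1bcKO. The spread within a genotype was larger than the difference between the means, 275.7 ± 32.5 and 266.7 ± 24.8 (SD, n = 3 each). Tead4 was at 106, 130 and 99 in CtrlCre and at 96, 115 and 127 in Cpt1bcKO. Its log2 difference was 0.01 with an interval of -0.28 to 0.31. Vgll4, the competitor for TEAD, was at 230, 256 and 211 in CtrlCre and at 233, 250 and 226 in Cpt1bcKO. All Cpt1bcKO values of Vgll4 again lay within the CtrlCre range (log2 difference 0.03, interval -0.18 to 0.24).

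The spread within a genotype was set beside the spread that counting alone would give. The within-genotype coefficient of variation of the 9 named peaks was 3.63% to 14.6% (median 9.30%), beside 5.37% to 12% (median 7.78%) computed for Poisson counting of their reads. In 7 of the 18 gene and genotype combinations the observed value was below the counting value. With 3 libraries each such coefficient is itself imprecise, and the counting value covers counting error only. It also takes the recovered counts as single reads, which was not tested.

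The genes differed in how their mark was shaped. Peak widths ran from 861 bases at Stk4 (percentile 17.5 of tested peaks) to 4128 bases at Wwtr1 (percentile 94.4). Of the 9 peaks, 5 were among the broadest 25% of tested peaks (Wwtr1, Tead1, Lats1, Vgll4 and Yap1, each over 2222 bases), 3 were of medium width (Tead4, Sav1 and Stk3) and Stk4 was among the narrowest 25% (under 1030 bases). In normalized reads per kb of peak, the CtrlCre means were highest at Stk4 (148 ± 5.36, SD, n = 3). They followed at Yap1 (86.2 ± 5.83), Stk3 (83.1 ± 6.81), Vgll4 (82.3 ± 8.0), Tead1 (78.6 ± 9.27), Lats1 (73.7 ± 8.27) and Wwtr1 (72.8 ± 6.79). Tead4 (55.1 ± 8.02) and Sav1 (46.7 ± 5.97) were lowest. The range of Stk4 did not overlap that of Yap1, and that of Wwtr1 did not overlap that of Tead4, whereas all other neighbours in this order overlapped. The narrowest peak was thus the densest, at percentile 99.7 of density over all tested peaks, taken as the mean of the 6 libraries.

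The named peaks also differed in sequence composition, read from the GRCm38 genome. Their median GC content was 56.6%, beside 55.6% over all tested peaks, and their median observed-to-expected CpG ratio was 0.726 beside 0.643. Yap1 (0.934), Tead1 (0.924) and Sav1 (0.903) had CpG ratios above the 95th percentile of tested peaks. The peak named for Vgll4 had the lowest ratio of the 9, 0.312, at percentile 8.19. It covers the start of the coding transcript Vgll4-201, inside the gene.

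The balance of paralogues within a library gave no difference between genotypes that an exact permutation test could call. The log2 ratio of the peak values of Stk3 over Stk4 was -0.40, -0.21 and -0.33 in CtrlCre and -0.64, -0.45 and -0.28 in Cpt1bcKO. The genotypes overlapped, with a difference of -0.14 (two-sided exact p = 0.3). For Yap1 over Wwtr1 the genotype difference was 0.04 (exact p = 0.8), for Tead1 over Tead4 -0.06 (exact p = 0.8), and for Lats1 over the Lats2 peak 0.14 (exact p = 0.6). After Benjamini-Hochberg adjustment over the 4 pairs each p was 0.8. With 3 libraries against 3 the smallest p possible is 0.1, so no pair could have passed. Peak widths differ between paralogues, so the ratios compare genotypes and not genes.

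The further peaks over the gene bodies gave the largest differences of the pathway's core genes. Of the 8, 5 stood over annotated transcript starts: the Lats2 peak, a peak at the first start of Stk4 that is named for its divergent neighbour Tomm34, peaks at the outermost start and at inner noncoding starts of Vgll4, and a peak inside Tead1. All 8 passed the filter, and 0 were called by limma at an adjusted p under 0.05, against 2.93% of all tested peaks. At an unadjusted p under 0.05, 2 passed (1 in Tead1 and 1 in Vgll4), against 12.8% of all tested peaks. Limma-voom called 1, inside Tead1, and its share over all peaks was not worked out. Of the 7 without a gene name, 3 had all Cpt1bcKO values below all CtrlCre values. Over all 3708 tested peaks without a gene name, 3.53% were called lower in Cpt1bcKO and 13.2% had all Cpt1bcKO values below all CtrlCre values.

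The clearest of them was the inner Tead1 peak, chr7:112741207-112743856, with its centre 63.2 kb into the gene. It was at 54, 42 and 47 in CtrlCre and at 19, 21 and 33 in Cpt1bcKO. The genotypes did not overlap, and the Cpt1bcKO mean was 0.509-fold that of CtrlCre on the log2(value + 1) scale (log2 difference -0.97, SE 0.27, 95% interval -1.54 to -0.41). The unadjusted p was 0.00169 and the adjusted p 0.0547 with limma, and the adjusted p was 0.0303 with limma-voom. The peak covers the start of the coding transcript Tead1-206 and otherwise lies in introns (96.8% of its bases). It was broad and shallow, 2649 bases wide with 18.0 normalized reads per kb in CtrlCre, where the Tead1 promoter peak held 78.6. Its CpG ratio was 0.262 and its GC content 46.3%, at percentiles 5.07 and 7.73 of tested peaks.

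The log2 ratio of the Tead1 promoter peak over the inner peak was 2.32, 2.51 and 2.69 in CtrlCre and 3.59, 3.72 and 3.0 in Cpt1bcKO. All Cpt1bcKO ratios lay above the CtrlCre ratios, a difference of 0.93 (two-sided exact permutation p = 0.1, the smallest that 3 against 3 can give, and 0.3 adjusted over 3 genes). A second, 424-base peak inside Tead1, 128.1 kb from the start, was at 19, 12 and 10 in CtrlCre and at 6, 7 and 7 in Cpt1bcKO. It did not overlap between genotypes either, but rested on 5 to 22 reads per library (log2 difference -0.89, interval -1.93 to 0.15, adjusted p = 0.486, limma).

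**Figure D2:**
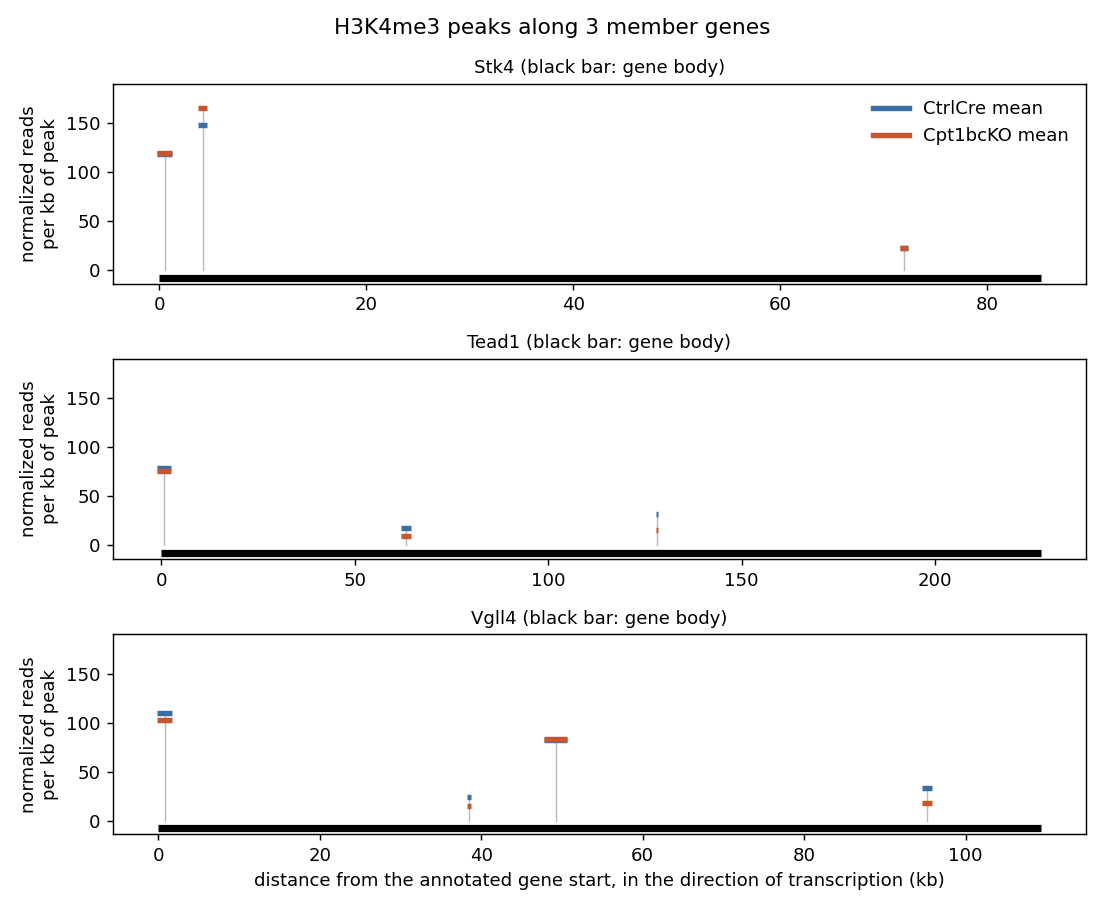
Mean H3K4me3 density (normalized reads per kb of peak, vertical axis) of each peak along Stk4, Tead1 and Vgll4 against distance from the annotated gene start in kb. Coloured dashes span the peak at the height of the CtrlCre (blue) or Cpt1bcKO (orange) mean, the black bar is the gene body. The start peaks of Tead1 and Vgll4 stand at similar heights in both genotypes, while the inner Tead1 peak at 63.2 kb stands at 18.0 in CtrlCre and 9.19 in Cpt1bcKO.

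Vgll4 likewise had strong and weak peaks along the gene, although its strong named peak also lies inside the gene. The unnamed peak over its outermost start, chr6:114968313-114970092, was at 199, 198 and 190 in CtrlCre and at 180, 167 and 201 in Cpt1bcKO. The ranges overlapped through Cpt1bcKO replicate 3, the highest of the 6 (log2 difference -0.10, interval -0.32 to 0.11). The inner peak chr6:114874124-114875369, 95.2 kb into the gene over the starts of noncoding transcripts, was at 43, 46 and 34 in CtrlCre and at 25, 29 and 14 in Cpt1bcKO. Its genotypes did not overlap, and the log2 difference was -0.88 (interval -1.50 to -0.25, adjusted p = 0.154, limma). A further intronic peak 38.5 kb into Vgll4 was at 12, 19 and 9 in CtrlCre and at 8, 11 and 6 in Cpt1bcKO, with overlap. At the Stk4 gene, the divergent promoter peak named for Tomm34 was at 150, 174 and 165 in CtrlCre and at 179, 162 and 155 in Cpt1bcKO. An intronic Stk4 peak 71.9 kb from the start was at 27, 12 and 17 in CtrlCre and at 19, 19 and 17 in Cpt1bcKO. Neither Stk4 peak separated the genotypes (log2 differences 0.02 and 0.05).

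**Figure D3:**
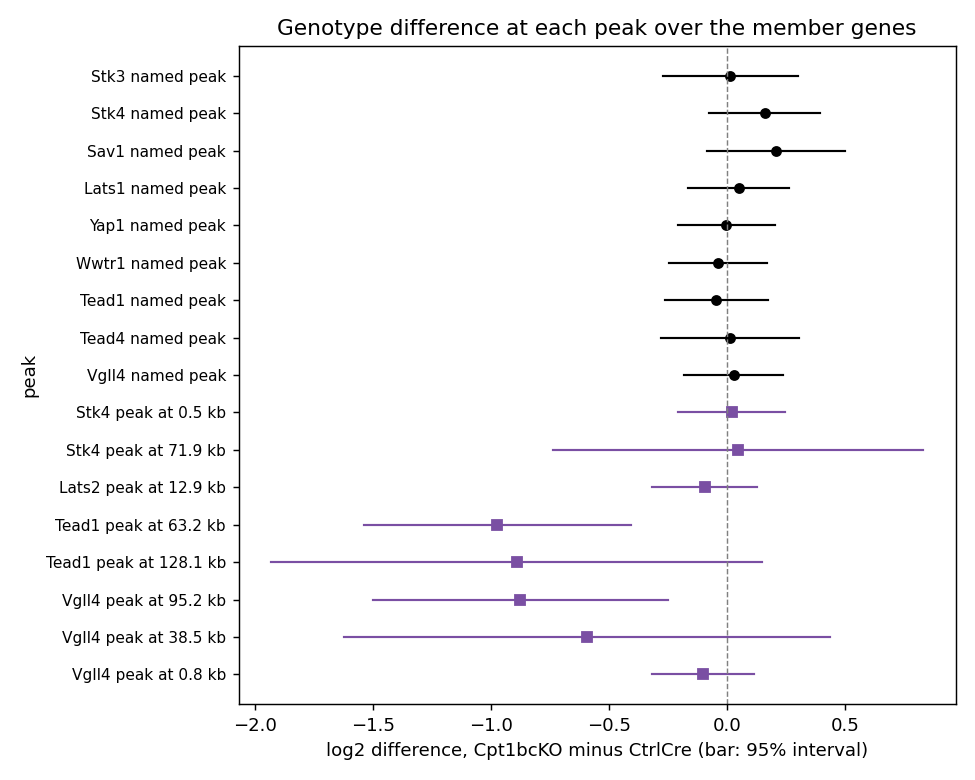
Log2 difference, Cpt1bcKO minus CtrlCre (horizontal axis), with its 95% interval from limma for the 9 named peaks (black circles) and the 8 further peaks (purple squares, named by the distance of their centre from the annotated gene start). The intervals of the inner Tead1 peak at 63.2 kb and of the inner Vgll4 peak at 95.2 kb lie below 0, and the other 15 include 0.

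**Figure D4:**
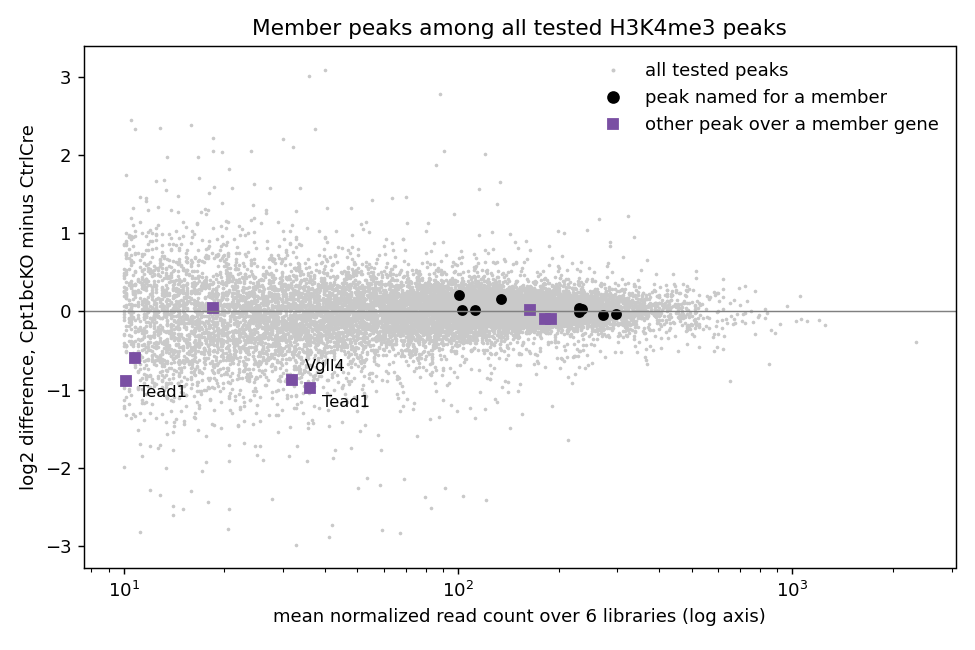
Mean normalized read count over 6 libraries (horizontal log axis) against log2 difference between genotypes (vertical axis) for all 15039 tested peaks (grey). The 9 named peaks (black circles) sit between 100.5 and 296.5 reads close to 0, while the inner Tead1 and Vgll4 peaks (purple squares) sit at 10.2 to 36 reads, where the differences of all peaks spread more widely.

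Beyond the core, 55 other genes of the pathway were listed by role, and for 45 of them a peak bearing the gene's name was tested. Of these, 2 had a peak called lower in Cpt1bcKO, Arhgef17 and Ctgf, and 0 had one called higher. Over all 11067 named genes tested, 1.28% had a peak called lower and 0.976% one called higher. The median log2 difference of the strongest peak was 0.02 over the 45 genes, beside 0.01 over all tested peaks.

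Among upstream regulators, 0 of 27 tested genes were called, with 10 values below 0 and 17 above. Taok3, a kinase that can activate STK3 and STK4, was the 1 gene of the list at an unadjusted p under 0.05. It was at 121, 123 and 132 in CtrlCre and at 151, 153 and 149 in Cpt1bcKO. Every Cpt1bcKO value was higher, with a log2 difference of 0.27 (SE 0.11, adjusted p = 0.284, limma). Nf2, the membrane-linked activator of the cascade, overlapped between genotypes (log2 difference 0.20, adjusted p = 0.534). Peaks over these genes or within 5000 bases of them that lacked the gene's name were then added, including peaks named for neighbours. Over all 3708 tested peaks without a gene name, 3.53% were called lower in Cpt1bcKO. With the added peaks, 1 upstream regulator, Wwc2, had a called peak, which carried no gene name. That peak, chr8:47973908-47975321, 16.3 kb into the gene, was at 71, 84 and 76 in CtrlCre and at 40, 48 and 37 in Cpt1bcKO (log2 difference -0.88, SE 0.19, adjusted p = 0.0105, limma). It was not called without the trend in the variance (adjusted p = 0.0720, limma). The peak at the start of Wwc2 had a log2 difference of 0.09 (adjusted p = 0.803). Of the 3 tested TEAD and VGLL relatives, Tead3, Vgll2 and Vgll3, 0 were called, with log2 differences of 0.16 to 0.52. The intervals were -0.07 to 0.38 at Tead3, -0.19 to 1.23 at Vgll2 and -0.34 to 0.81 at Vgll3. Vgll2 rested on 7 to 60 reads per library, and was at 23, 21 and 43 in Cpt1bcKO. Vgll3 was at 42, 29 and 68 there, so both were highest in Cpt1bcKO replicate 3.

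Of 17 tested YAP/TAZ target genes, 2 were called lower and 0 higher, beside 1.28% and 0.976% of all named genes tested. Their strongest peaks had 12 log2 differences below 0 and 5 above, and those below include Crim1 (-0.006) and Tgfb2 (-0.0008), close to 0. The median of the 17 was -0.06, beside 0.01 over all tested peaks. Amotl2 and Ptpn14 belong to this list and to the upstream regulators, and are counted in both. Arhgef17, a guanine nucleotide exchange factor, was at 214, 260 and 194 in CtrlCre and at 101, 77 and 88 in Cpt1bcKO. The genotypes were far apart, and the Cpt1bcKO mean was 0.401-fold that of CtrlCre (log2 difference -1.32, SE 0.13, adjusted p = 1.08e-06, limma). Its peak, chr7:100927826-100934099, was 6273 bases wide, at percentile 98.2 of width. A second peak without a gene name lay 37.6 kb into Arhgef17, over the start of the coding transcript Arhgef17-204. That second peak was at 50, 67 and 49 in CtrlCre and at 64, 45 and 55 in Cpt1bcKO. Its genotypes overlapped (log2 difference -0.02, adjusted p = 0.991, limma). Ctgf, a secreted matricellular protein also called CCN2 and a standard readout of YAP activity, was at 230, 235 and 253 in CtrlCre and at 181, 162 and 187 in Cpt1bcKO. All Cpt1bcKO values were lower, and the fold was 0.739 (log2 difference -0.44, SE 0.10, adjusted p = 0.0159, limma). The Ctgf call did not hold when any of 4 single libraries was left out (CtrlCre replicates 1 and 3, and Cpt1bcKO replicates 1 and 2, adjusted p of 0.0531 to 0.0963) or without the trend in the variance (adjusted p = 0.179).

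F3, the coagulation initiator tissue factor, was at 279, 239 and 311 in CtrlCre and at 225, 225 and 222 in Cpt1bcKO. The genotypes did not overlap, but F3 was not called (log2 difference -0.29, adjusted p = 0.169, limma), except without CtrlCre replicate 2 (adjusted p = 0.0310). Dock5, an activator of Rac, was at 130, 123 and 127 in CtrlCre and at 149, 149 and 161 in Cpt1bcKO. It was the 1 target with an unadjusted p under 0.05 in the upward direction (log2 difference 0.27, adjusted p = 0.276, limma). Other standard targets overlapped between genotypes. Cyr61 (also CCN1), a matricellular relative of Ctgf, had a log2 difference of 0.08, and Ankrd1, a cardiac stress-response protein of the sarcomere and nucleus, one of -0.18 with values of 165 to 390 in Cpt1bcKO. The summed mural markers were lower in Cpt1bcKO, and 3 of the 6 on that list had a peak (Acta2, Cspg4 and Myh11). Those 3 summed to 140 to 217 in CtrlCre and 32 to 80 in Cpt1bcKO. Of the 3 peaks, 1, at Acta2, was called lower, where 1.28% of all named genes tested had a peak called lower. Whether the mural sum followed the lower target genes or the inner Tead1 peak from library to library was not tested. Pdgfra was the 1 fibroblast marker of 8 with a peak (58 to 69 and 56 to 63) and Kdr the 1 endothelial marker of 8 (39 to 91 and 31 to 51), while macrophage, epicardial and Schwann markers had none. The part of other cell types in these results was not tested, and fewer cells of a type cannot be told apart from less H3K4me3 per cell.

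**Figure D5:**
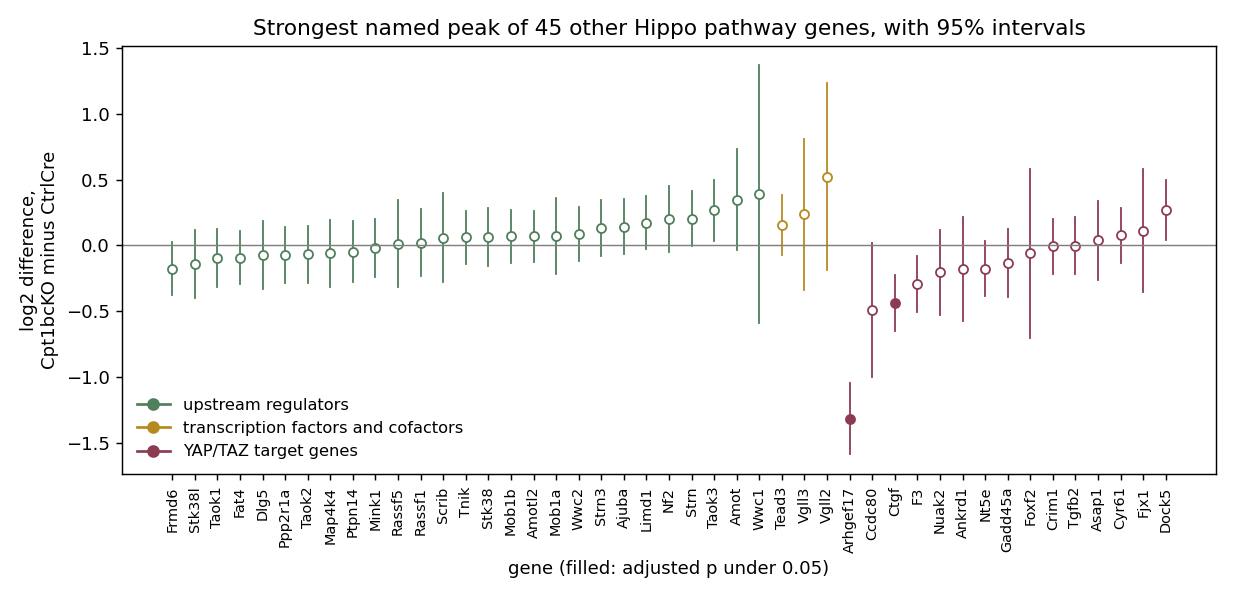
Log2 difference, Cpt1bcKO minus CtrlCre (vertical axis), of the strongest named peak of 45 other pathway genes with 95% intervals from limma, coloured by list (upstream regulators, transcription factors and cofactors, YAP/TAZ target genes). Filled points, Arhgef17 at -1.32 and Ctgf at -0.44, are the 2 with an adjusted p under 0.05. Amotl2 and Ptpn14, which are on 2 lists, are shown with the upstream regulators.

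The named peak of the core genes with the smallest p, Sav1, was compared with all other peaks that carried a gene name and a mean of at least 50. The 3 profiles most like it over the 6 libraries were those of Pon3 (Pearson r = 0.990), Steap1 (r = 0.987) and Fermt2 (r = 0.985), out of 9326. Each of the 3 had an adjusted p over 0.6, and the highest of so many correlations over 6 points that share libraries is a description only.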

How the data were processed

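H3K4me3 ChIP-seq of sorted CM nuclei was available as 1 table of 15848 union peaks, with 3 libraries per genotype. Per the study's methods and labels, the authors trimmed reads (Trimmomatic 0.39), aligned them to mm10 (STAR 2.6.1d), removed duplicates (Picard 2.21.7), called peaks against input with MUSIC, merged them, and normalized counts per peak with DESeq2 1.26.0. In the deposited table each library's values are rounded to integers (a score, not raw counts), and the deposited genotype means are the same signal unrounded. The table also holds the authors' log2 fold changes and p-values, which were not used, and the deposited fraction of each peak inside its gene. Size factors set the median peak to no change, so a shift shared by all peaks cannot be seen.

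The 10 genes, the pathway lists and the marker lists were chosen with earlier results of these data known. Differences were tested on log2(value + 1) with limma 3.58.1 (trend, genotype alone, two-sided, Benjamini-Hochberg over 15039 peaks with a mean of at least 10). Raw counts per peak were recovered from the rounded values and unrounded means, with 1 solution for 100% of peaks in every library, and were used for limma-voom and depth. Scripts were tested on simulated data. Peaks by position were found with GENCODE vM21 (GRCm38, the build of the table), whereas the table's names come from another GENCODE release. Coordinates are as deposited. Genes outside the core were named at an adjusted p under 0.05, or at an unadjusted p under 0.05 without overlap between genotypes, and the 3 peaks most like the core peak of smallest p were added. Nf2, Cyr61, Ankrd1, Tead3, Vgll2, Vgll3, the Wwc2 peaks and the second Arhgef17 peak were named outside this rule, after their values were seen.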

Additional observations from a re-analysis of the deposited data

How the results depend on the processing

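The alternatives were no filter, a mean of at least 50, a pseudocount of 5, quantile normalization, the replicate block, no variance trend, limma-voom, peaks by position, and each library left out. The count of called core peaks stayed at 0 under each of them by limma. With peaks by position and limma-voom together, chosen after seeing the data, it was 1 (the inner Tead1 peak). That peak was also called without Cpt1bcKO replicate 3, and its log2 difference ran from -1.21 to -0.82 over 12 alternatives, with adjusted p of 0.0270 to 0.265. The count of 2 called pathway genes fell to 1 without the variance trend, was 3 with peaks by position, and ran from 1 to 3 with 1 library left out. Differences near 0 changed sign when 1 library was left out: Stk3 (-0.088 to 0.080), Lats1 (-0.033 to 0.13), Yap1 (-0.060 to 0.039), Wwtr1 (-0.11 to 0.026), Tead1 (-0.13 to 0.040), Tead4 (-0.077 to 0.13), Vgll4 (-0.039 to 0.10), the Tomm34 peak at Stk4 (-0.038 to 0.069) and the intronic Stk4 peak (-0.22 to 0.34). So did the ratios of Yap1 over Wwtr1 (-0.037 to 0.13), Tead1 over Tead4 (-0.26 to 0.11) and the Stk4 named peak over the intronic one (-0.16 to 0.39). With quantile normalization the last ratio was -0.036 and the Tomm34 peak -0.0028, and with limma-voom Yap1 was 0.013 and the intronic Stk4 peak -0.13. The cause of these changes was not tested.

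No pairing of libraries by the replicate numbers shared between genotypes was seen (correlations of deviations 0.08, -0.08 and 0.11 for numbers 1 to 3). Libraries of different numbers were not compared in this way, and the labels do not say whether the numbers pair libraries. With the replicate block, 0 core peaks and 2 pathway genes were called, as without it. Under the block, the exact sign-flip p of the ratios ran from 0.25 to 1, with unchanged differences. With 3 pairs of libraries the smallest sign-flip p possible is 0.25, so no ratio could have passed. No core gene had a second peak under its own name, so ratios within a gene, and the Lats2 ratio, rest on peaks by position and were added after seeing the data. The inner peaks held 5 to 64 reads per library, which limits what can be seen there.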
